A study of Mus musculus with 6 samples.

Results

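Imprinted genes are expressed mainly or only from the copy inherited from 1 parent. The 39 imprinted genes described here were taken from a list of mouse gene symbols, all of which were found in the GENCODE annotation of GRCm38 among 55341 symbols. They fall into 19 clusters or single loci. H3K4me3, the trimethylation of histone H3 lysine 4 that marks active promoters, and H3K27me3, the lysine 27 trimethylation that Polycomb repressive complex 2 lays down at silent genes, were profiled by ChIP-seq in colonic organoids, which are 3-dimensional cultures of colon epithelial cells, from C57BL/6 wild-type mice. Organoids were left untreated (wt) or kept for 3 weeks with 40 ng/ml of the inflammatory cytokine TNFα (wt+TNFα). Each condition had 1 H3K4me3 library, 1 H3K27me3 library and 1 input, so the comparisons below have no replicate check and no test. The labels do not say how many animals gave the cultures.

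At most imprinted clusters a CpG-rich imprinting control region carries DNA methylation on 1 parental copy from the germ line onward. The unmethylated copy of such a region often serves as the promoter of a paternally expressed gene or long non-coding RNA and carries H3K4me3, and H3K27me3 can lie on the silent copy. The zinc finger protein ZFP57 binds methylated TGCCGC in these regions and helps to keep the imprint. C57BL/6 is an inbred strain and the files are peak lists, so the 2 parental copies were not told apart here, and DNA methylation and RNA were not analysed here. A gene absent from a list had no peak past the authors' threshold, which is not a level of 0. In bulk cultures a mark on fewer cells and less of the mark per cell cannot be told apart.

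H3K4me3 peaks numbered 11552 in wt and 11894 in wt+TNFα, and H3K27me3 peaks 30594 and 60540. H3K27me3 peaks covered 101 Mb of the autosomes in wt and 228 Mb in wt+TNFα. On the X chromosome 247 H3K27me3 peaks were called in wt and 11578 in wt+TNFα, and on the Y chromosome 3 H3K4me3 peaks and 0. The cultures therefore differed in more than single loci. The labels give no sex for either culture, and treatment, the sex of the cultures and any other difference between them cannot be told apart. The labels set the depth at 40000000 reads for inputs and H3K4me3 and at 60000000 for H3K27me3. The study's reporting summary lists totals that differ from these labels. It gives more reads for wt+TNFα than for wt in the H3K4me3 and input libraries, and nearly equal totals for the H3K27me3 libraries. Of 8 colonic epithelium markers, 8 carried promoter H3K4me3 in wt and 7 in wt+TNFα, where Krt20, a keratin of differentiated surface cells, had none. The wt peaks of Krt20 were weak, at the 2.97 and 4.91 percentiles of fold enrichment in their list. Of 6 markers of immune, endothelial and mesenchymal cells, 0 carried promoter H3K4me3 in either condition, and 4 in wt and 5 in wt+TNFα carried H3K27me3, the further 1 being Pecam1, an endothelial adhesion gene.

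The conditions differed in the H3K4me3 peaks called at imprinted promoters. A promoter was taken to reach 1000 bp up- and downstream of each annotated start of a gene, and a peak counted there when it overlapped by at least 1 bp. All annotated genes include every gene type, and a gene with more starts can have more promoter bases. The shares of all genes were not matched for either. In wt 20 of the 39 genes (51.3%) carried H3K4me3 and in wt+TNFα 14 (35.9%), beside 24.3% and 24.7% of all annotated genes. All 6 genes of the difference had a wt peak with no wt+TNFα peak, and 0 members had H3K4me3 in wt+TNFα alone, a state of 0.851% of all genes. The 6 genes were Snrpn, Snurf, Peg3, Usp29, Kcnq1ot1 and Nespas. They made up 15.4% of the 39 genes and 30% of those with wt H3K4me3, whereas 0.407% of all genes (225) and 1.68% of the 13426 genes with wt H3K4me3 were in this state. Those shares are taken over genes whose H3K4me3 peaks were mostly stronger, and the share of missing peaks among wt peaks of like strength is given for each locus below. The 6 genes rest on 4 peaks, because Snrpn and Snurf share a promoter, as do Peg3 and Usp29. Each is expressed from the paternal copy, and each of the 4 peaks lies at or beside a known germline control region that is methylated on the maternal copy. The promoters of Airn, Plagl1, Zrsr1, Mcts2 and Impact lie at such regions too and kept H3K4me3. Of 12 paternally expressed genes with wt H3K4me3, 6 kept a peak. All 6 maternally expressed genes with wt H3K4me3 kept theirs (Ube3a, Kcnq1, Phlda2, Cd81, Tssc4 and Igf2r), as did Gnas and Inpp5f, whose transcripts differ in parental origin. In wt the peaks of the 6 maternally expressed genes stood at the 23.4 to 91.0 percentiles of fold enrichment. The 4 missing peaks stood at the 22.2 percentile or lower, so parental class and peak strength cannot be told apart here.

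**Figure D1:**
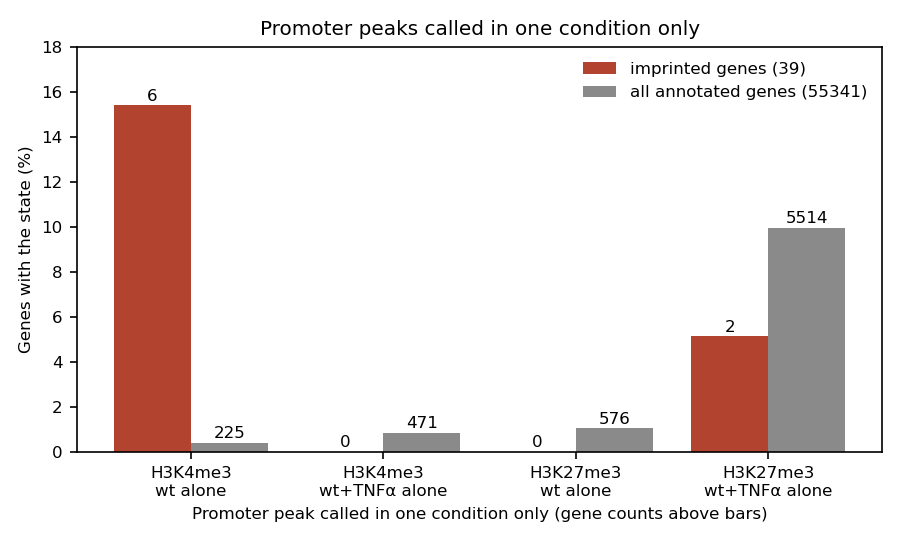
Share of genes (%) whose promoter carried a called peak in 1 condition alone, for the 39 imprinted genes and for all 55341 annotated genes, with gene counts above the bars. H3K4me3 in wt alone was found at 6 imprinted genes (15.4%) and at 225 of all genes (0.407%), and H3K27me3 in wt+TNFα alone at 2 imprinted genes (5.13%) and at 9.96% of all genes.

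The sequence under these peaks is shown because ZFP57 recognises the imprint through it. The 300 bases around the summit of each of the 4 wt H3K4me3 peaks, and of the Airn peak that was called in both conditions, are given from the GRCm38.p6 reference in the direction of transcription (of Peg3 where Usp29 runs the other way), with TGCCGC and its reverse complement GCGGCA in capitals. The windows lie at chr7:60004126-60004425 for Snrpn/Snurf (minus strand), chr7:143295328-143295627 for Kcnq1ot1 (minus strand), chr7:6729606-6729905 for Peg3/Usp29 (minus strand), chr2:174294998-174295297 for Nespas (minus strand) and chr17:12741832-12742131 for Airn (plus strand).
Snrpn/Snurf: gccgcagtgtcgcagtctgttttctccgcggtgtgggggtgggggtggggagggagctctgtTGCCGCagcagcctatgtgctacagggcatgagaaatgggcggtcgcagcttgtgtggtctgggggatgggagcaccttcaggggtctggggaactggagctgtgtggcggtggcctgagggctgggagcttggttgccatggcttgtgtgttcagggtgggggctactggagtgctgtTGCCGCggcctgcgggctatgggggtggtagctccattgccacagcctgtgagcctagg
Kcnq1ot1: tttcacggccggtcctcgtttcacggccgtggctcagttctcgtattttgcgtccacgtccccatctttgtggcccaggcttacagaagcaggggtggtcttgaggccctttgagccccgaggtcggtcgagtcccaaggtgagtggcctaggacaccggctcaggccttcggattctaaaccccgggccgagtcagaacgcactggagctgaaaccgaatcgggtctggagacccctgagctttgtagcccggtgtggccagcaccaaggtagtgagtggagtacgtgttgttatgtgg
Peg3/Usp29: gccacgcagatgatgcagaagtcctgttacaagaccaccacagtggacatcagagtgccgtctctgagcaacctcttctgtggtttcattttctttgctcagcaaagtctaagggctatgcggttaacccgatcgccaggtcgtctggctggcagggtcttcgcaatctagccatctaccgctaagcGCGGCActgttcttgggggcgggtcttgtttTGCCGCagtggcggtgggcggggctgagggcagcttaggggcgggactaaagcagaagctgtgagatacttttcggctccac
Nespas: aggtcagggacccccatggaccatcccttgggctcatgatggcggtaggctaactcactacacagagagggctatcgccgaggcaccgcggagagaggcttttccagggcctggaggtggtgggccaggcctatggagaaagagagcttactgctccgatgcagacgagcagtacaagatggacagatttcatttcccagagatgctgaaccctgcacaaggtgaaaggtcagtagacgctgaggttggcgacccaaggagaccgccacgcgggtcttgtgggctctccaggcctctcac
Airn: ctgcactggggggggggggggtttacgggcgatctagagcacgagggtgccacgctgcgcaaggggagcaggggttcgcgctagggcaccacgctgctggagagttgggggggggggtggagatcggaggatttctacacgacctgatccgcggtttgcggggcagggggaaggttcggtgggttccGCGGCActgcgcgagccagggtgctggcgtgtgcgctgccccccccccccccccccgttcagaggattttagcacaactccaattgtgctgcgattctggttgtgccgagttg
The Snrpn and Peg3 windows held 2 matches each, the Airn window 1 and the Kcnq1ot1 and Nespas windows 0, while 26.0% of the summit windows of all wt H3K4me3 peaks held at least 1. Over their whole length the peaks held 9 matches at Snrpn, 3 at Peg3, 3 at Kcnq1ot1, 0 at Nespas and 7 at Airn. Among the other H3K4me3 peaks of imprinted genes, that of Plagl1 held 5 matches in 926 bp, 3 of them in its summit window, and that of Gnas held 6 in 5014 bp. Of all wt H3K4me3 peaks, 55.4% held at least 1 match, so a match was common. The windows were also poorer in CpG dinucleotides than the usual H3K4me3 window, which had a median of 26: there were 11 at Snrpn, 16 at Peg3, 20 at Kcnq1ot1, 12 at Nespas and 23 at Airn. Over whole peaks, which had a median of 77, there were 45 at Snrpn, 29 at Peg3, 99 at Kcnq1ot1, 13 at Nespas and 89 at Airn.

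Snrpn, which encodes a spliceosomal protein, and Snurf share the promoter at the imprinting centre of the Prader-Willi/Angelman cluster. In wt an H3K4me3 peak of 1341 bp covered it (chr7:60003810-60005150), 13.2-fold enriched over local background at a −log10 q of 63.6. This peak was at the 22.2 percentile of fold enrichment in its list, where 100 is the strongest peak, and 76 bp of it were exonic and 1265 bp intronic in Snrpn. In wt+TNFα no H3K4me3 peak was called there, and an H3K27me3 peak of 709 bp lay across the start (chr7:60004775-60005483, fold enrichment 1.87, −log10 q 1.22), covering 28.0% of the lost peak. Snrpn and Snurf were the 2 members with H3K27me3 in wt+TNFα alone, and it was a weak peak of its list (43.0 percentile). Of the 200 wt H3K4me3 peaks nearest to it in −log10 q (60.9 to 66.1), 1 (0.5%) had no wt+TNFα H3K4me3 peak over it.

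Kcnq1ot1 is the long antisense RNA that silences its neighbours in cis on the paternal copy, and its promoter lies inside the Kcnq1 gene. The wt H3K4me3 peak (chr7:143294749-143296530, 1782 bp) had a fold enrichment of 8.17, a −log10 q of 35.7 and the 10.7 percentile, and began 19 bp downstream of the annotated start, inside the single exon of this RNA. In wt+TNFα the nearest H3K4me3 peak was 177019 bp from that start. No H3K27me3 peak came closer than 136804 bp in wt or 136619 bp in wt+TNFα, so this promoter went from H3K4me3 alone to neither mark. Of the 200 wt peaks nearest in −log10 q (33.3 to 38.2), 10 (5%) had no wt+TNFα counterpart.

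Peg3, a zinc finger gene, and Usp29, a deubiquitinase gene, start back to back. In wt a narrow H3K4me3 peak (chr7:6729438-6729969, 532 bp, fold enrichment 6.61, −log10 q 16.5) lay in a Peg3 intron next to the start, and an H3K27me3 peak (chr7:6730028-6731244, fold enrichment 2.41, −log10 q 1.99) lay beside it without overlap. In wt+TNFα the H3K4me3 peak was missing and the H3K27me3 peak was 2585 bp long (chr7:6729674-6732258, fold enrichment 2.30, −log10 q 3.25), spreading over 55.6% of the bases that H3K4me3 had held. The H3K27me3 peaks stood at the 84.7 (wt) and 91.3 (wt+TNFα) percentiles of their lists. The wt H3K4me3 peak was weak, at the 6.06 percentile, and 41 of the 200 wt peaks nearest in −log10 q (20.5%) had no counterpart. Zim1, the maternally expressed zinc finger gene next to them, carried neither mark in either condition.

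Nespas, the antisense RNA of the Gnas locus, had the weakest of the 4 peaks (chr2:174294957-174295317, 361 bp, fold enrichment 4.41, −log10 q 11.9, 0.511 percentile), with 248 bp in exons and 113 bp in introns of Nespas. In wt 53 bp of it lay under H3K27me3, and in wt+TNFα all of it did, under a peak of 25090 bp. Of the 200 wt H3K4me3 peaks nearest in −log10 q, 78 (39%) had no counterpart, so at Nespas a missing peak was common for its strength.

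**Figure D2:**
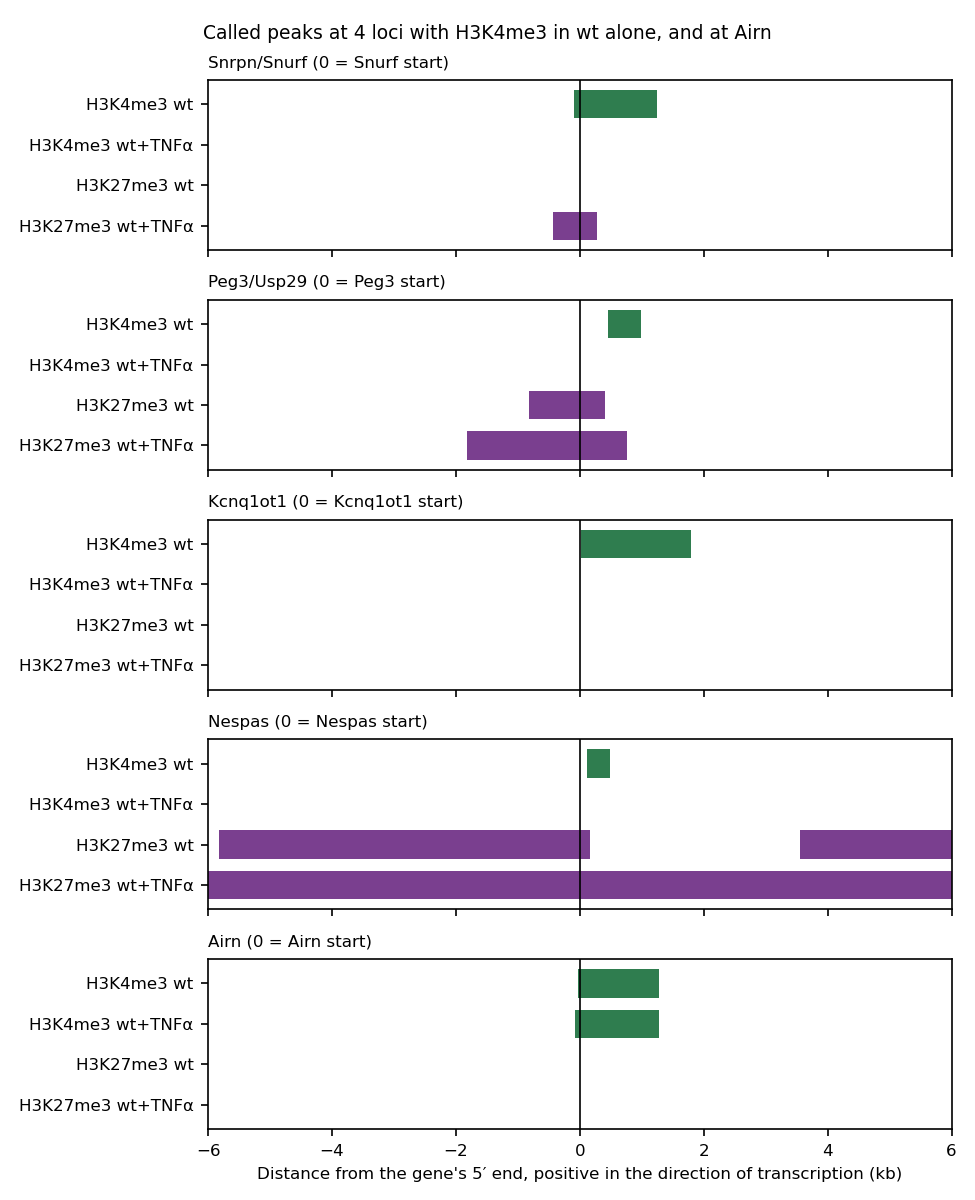
Called H3K4me3 (green) and H3K27me3 (purple) peaks in wt and wt+TNFα within 6 kb of the annotated 5′ end (x axis, kb, positive in the direction of transcription) at Snrpn/Snurf, Peg3/Usp29, Kcnq1ot1, Nespas and Airn; bars are cut at the panel edges. H3K4me3 is missing from the wt+TNFα row at the first 4 loci and present at Airn, and H3K27me3 covers 28.0% of the lost peak at Snrpn, 55.6% at Peg3, none of it at Kcnq1ot1 and 100% at Nespas.

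Across the genome 380 of 11552 wt H3K4me3 peaks (3.29%) had no wt+TNFα H3K4me3 peak over them, and these were weaker (median −log10 q 17.0) than the 11172 that had one (median 167). Of the 380, 139 (36.6%) lay under wt+TNFα H3K27me3, compared with 973 of the 11172 (8.71%). Already in wt 102 of the 380 (26.8%) overlapped H3K27me3, compared with 6.57% of the 11172. At the imprinted loci 3 of the 4 missing peaks lay at least in part under wt+TNFα H3K27me3, and 1, that of Nespas, overlapped H3K27me3 in wt. All 4 were in the weaker part of the wt list, and when each list was reduced to peaks above its own median −log10 q, 6 members in wt and 7 in wt+TNFα carried H3K4me3 and 0 had it in wt alone. Counting only the 1000 bp upstream of the starts, 14 members carried H3K4me3 in wt and 13 in wt+TNFα. That setting left 3 of the 6 genes in wt alone, Snrpn, Snurf and Usp29, and put 2 members in wt+TNFα alone.

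The other paternally expressed genes with wt H3K4me3 kept a called peak, at differing strength. With both lists of the mark brought to equal covered length, Plagl1, Mkrn3 and Impact had no wt+TNFα peak either, and 9 members had H3K4me3 in wt alone. This setting removed peaks from the wt+TNFα list alone, which covered 19.5 Mb of the autosomes against 17.8 Mb in wt. It could therefore only keep or raise the wt-alone count, and the share of all genes at this setting was not computed. Airn, the antisense RNA that silences Igf2r, had a fold enrichment of 14.9 (wt) and 14.6 (wt+TNFα) over almost the same bases (1300 and 1355 bp), at the 25.9 and 23.8 percentiles. Plagl1, a zinc finger regulator of the cell cycle, had 16.0 in a peak of 926 bp in wt and 6.58 in one of 491 bp in wt+TNFα, from the 28.5 to the 5.70 percentile. Airn thus held its rank and its length, and Plagl1 stayed in the list at a lower rank.

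Zrsr1, a spliceosomal retrogene, had 1 peak in wt, 2574 bp long and 21.2-fold enriched (41.1 percentile). In wt+TNFα it had 2 shorter peaks, enriched 16.8-fold and 6.92-fold (27.7 and 6.60 percentiles). Mkrn3, a ring finger gene of the Prader-Willi/Angelman cluster, stood low in both lists, with 7.81 and 6.37 (9.76 and 5.02 percentiles). The retrogene Mcts2 went the other way, from 9.41 to 13.1 (13.6 to 20.9 percentile). So did Impact, a regulator of translation under stress, from 7.21 to 11.0 (8.09 to 16.7 percentile). In the full lists the weak wt peaks of Mkrn3, Impact and Mcts2, at or under the 13.6 percentile, had a wt+TNFα counterpart, and at equal covered length, of these 3, that of Mcts2 alone did.

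The H3K4me3 peaks of the maternally expressed genes ranged from the 23.4 percentile at Phlda2 to the 91.0 percentile at Kcnq1 in wt. Ube3a, the ubiquitin ligase gene of Angelman syndrome that is imprinted in neurons, had 31.5-fold enrichment in wt (67.0 percentile) and 53.0-fold in wt+TNFα (97.8 percentile). Kcnq1, a potassium channel gene, had 44.9 and 31.8 (91.0 and 63.1 percentiles), and the tetraspanin gene Cd81 had 35.1 and 45.1 (74.9 and 91.0). Phlda2, which restrains placental growth, had 13.8 and 21.0 (23.4 and 35.6), and Tssc4 of the same cluster had 25.1 and 31.1 (51.1 and 61.1). Igf2r, the receptor that clears IGF2, had 30.2 and 28.8 (64.2 and 54.5). These 6 promoters carried no H3K27me3 in either condition. The authors computed fold enrichments separately for each library, so the percentiles and not the folds are the measure to read between conditions. Inpp5f, an inositol phosphatase gene, was alike in both, with 41.9 and 40.6 (87.1 and 83.6 percentiles), and Gnas had 42.9 and 29.7 (88.6 and 57.2).

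**Figure D3:**
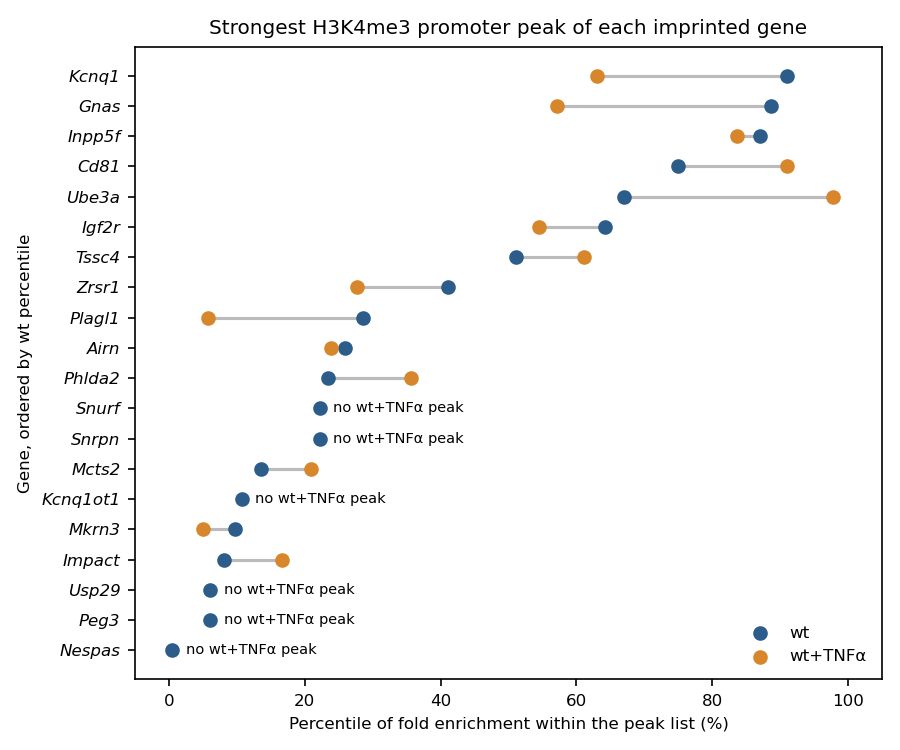
Percentile of fold enrichment within its own list (x axis, %, 100 is the strongest) of the strongest H3K4me3 promoter peak of the 20 imprinted genes with one, in wt (blue) and wt+TNFα (orange), ordered by wt. The 6 genes with no wt+TNFα peak stood at the 22.2 percentile or lower, and Plagl1 went from 28.5 to 5.70.

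By median rank, the promoter peaks of the imprinted genes stood lower than all promoter peaks for H3K4me3 and higher for H3K27me3. Weak H3K27me3 peaks were among them, such as 1 of Slc38a4 in wt at the 13.5 percentile. The 18 H3K4me3 peaks at their promoters in wt had a median percentile of 27.2 and those in wt+TNFα of 31.6, while all promoter peaks had medians of 53.6 and 54.1. For H3K27me3 the medians were 89.2 in wt and 96.6 in wt+TNFα, against 82.0 and 79.5 for all promoter peaks. These percentiles are taken within lists of unequal length, 30594 peaks in wt and 60540 in wt+TNFα.

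H3K27me3 was called at the promoters of 15 imprinted genes in wt (38.5%) and 17 in wt+TNFα (43.6%), beside 14.2% and 23.2% of all genes. The gain was the shared Snrpn and Snurf promoter alone (5.13% of members), below the 9.96% of all genes with H3K27me3 in wt+TNFα alone, and 0 members had it in wt alone, a state of 1.04% of all genes. With H3K27me3 peaks of −log10 q of at least 2, 4 members had it in wt+TNFα alone. Both lists brought to equal covered length, a setting that removes peaks from the wt+TNFα list alone, left 0.

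Of the 39 genes, 10 carried H3K27me3 without H3K4me3 in both conditions (25.6%, compared with 10.7% of all genes): Peg12, Peg10, Sgce, Mest, H19, Igf2, Dlk1, Grb10, Slc38a4 and Zdbf2. Igf2, the fetal growth factor gene, had the strongest of these peaks in wt, with a fold enrichment of 3.98 over 12905 bp (99.3 percentile). In wt+TNFα Igf2 had 3.32 over 43188 bp (98.1 percentile). H19, the maternally expressed RNA next to it, had 2.38 over 5495 bp (83.4 percentile) and 2.44 over 68943 bp (93.7 percentile). The interval that holds H19 and Igf2 was covered to 50.9% in wt and to 97.5% in wt+TNFα, by 10 peaks and by 2. No H3K4me3 peak was called in it in either condition.

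Peg10, a retrotransposon-derived gene needed in the placenta, shared a peak with Sgce, the sarcoglycan gene that starts next to it. Its fold enrichment was 2.58 in wt (89.2 percentile) and 2.53 in wt+TNFα (94.6 percentile). The interval of Peg10 and Sgce was covered to 21.0% and 43.0%. Mest, a gene of mesoderm and growth, had 2.58 and 3.33 (89.4 and 98.1 percentiles). Dlk1, which holds back adipocyte differentiation, had 2.76 and 2.98 (91.7 and 97.0). The paternally expressed Peg12 had 2.52 and 3.08 (88.0 and 97.3). Each of these genes had the mark over at least 1 group of starts in both conditions. At Mest 3 of 6 groups were under it, at Sgce 2 of 3, and the single Peg12 promoter was covered to 45.1% in wt and 53.2% in wt+TNFα.

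Grb10, an adaptor that restrains insulin signalling, carried H3K27me3 at 4 of its 8 groups of starts, all at the upstream end. The peak had 21601 bp in wt (fold enrichment 3.05, 94.4 percentile) and 38276 bp in wt+TNFα (2.88, 96.6 percentile). Slc38a4, an amino acid transporter gene, had 2.41 and 3.25 (84.8 and 97.9 percentiles) at its upstream start, whose promoter was covered to 75.2% and 100%. Zdbf2, a zinc finger gene, had a peak of 38962 bp in wt (3.26, 96.1 percentile) and 50652 bp in wt+TNFα (3.63, 98.8 percentile). In these 3 genes the peaks were longer in wt+TNFα, where the mark also covered more of the autosomes.

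In wt 5 genes carried both marks (12.8%), and in wt+TNFα 2 (5.13%), beside 2.39% and 3.50% of all genes. The 5 were Peg3, Usp29, Plagl1, Gnas and Nespas, of which Peg3 and Usp29 lie at 1 locus and Gnas and Nespas at another. Peg3, Usp29 and Nespas left the state through the missing H3K4me3 peak, and Plagl1 and Gnas remained in it. At the promoters of Gnas, which encodes the stimulatory G protein subunit, the marks lay at different starts: H3K27me3 covered 100% of the promoters of the 2 most upstream groups of starts and H3K4me3 100% of those of the next 2 groups downstream, in both conditions. At Plagl1 H3K27me3 lay in wt at the most upstream start, apart from the group of 22 transcripts that H3K4me3 marked. In wt+TNFα a further H3K27me3 peak (chr10:13088214-13092737, fold enrichment 2.15, −log10 q 2.47) covered 100% of that second group, including its H3K4me3 peak. Counted at 1 start per gene, 3 genes carried both marks in wt and 0 in wt+TNFα.

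**Figure D4:**
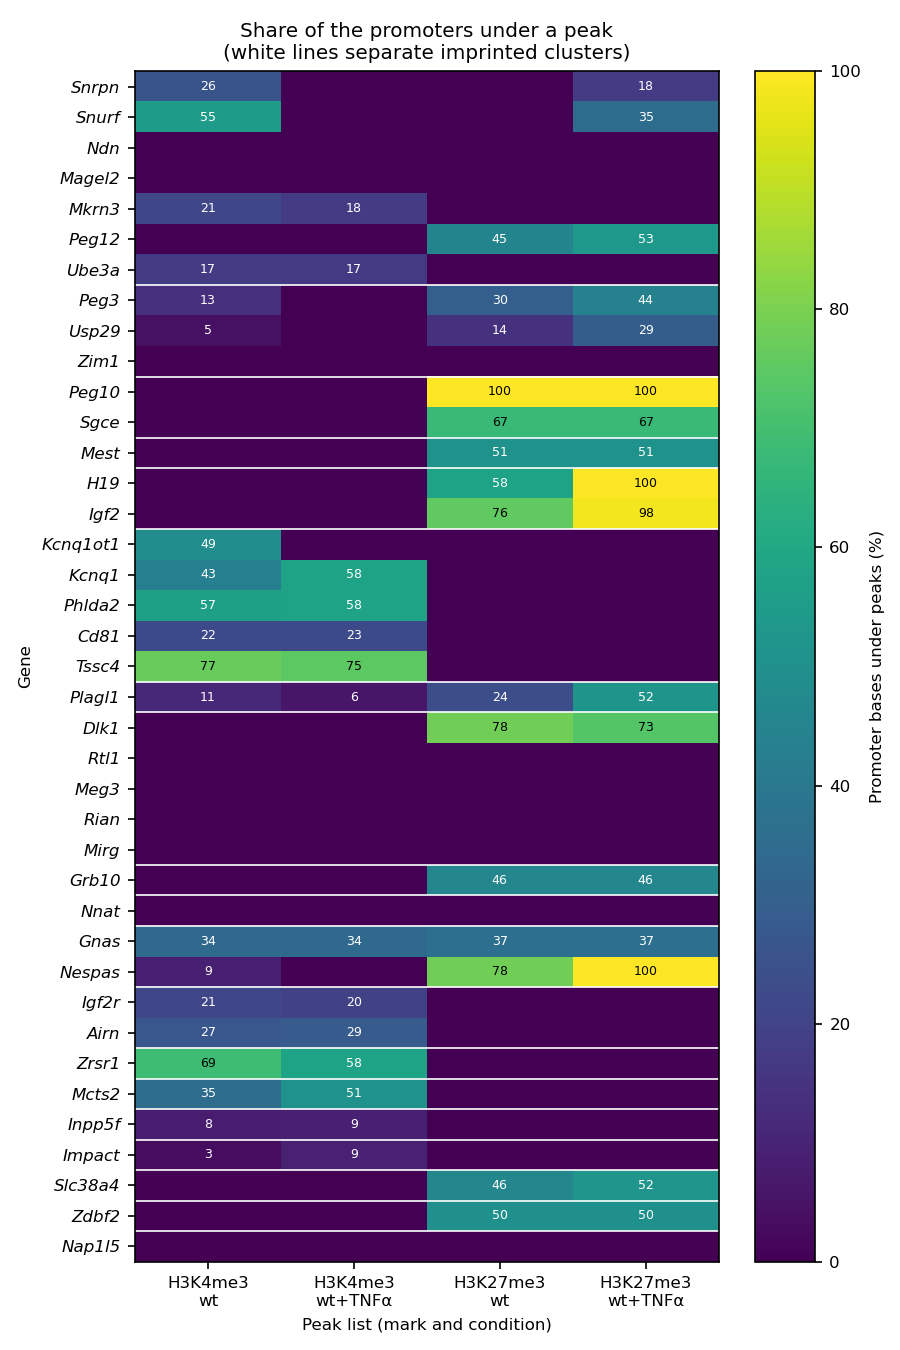
Share of promoter bases (%, 1000 bp on each side of all starts) under a peak of each of the 4 lists for the 39 imprinted genes; numbers give shares above 0, and white lines separate the clusters. H3K4me3 is missing in wt+TNFα at Snrpn, Snurf, Peg3, Usp29, Kcnq1ot1 and Nespas, and 10 genes carry H3K27me3 without H3K4me3 in both conditions.

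H3K4me3 without H3K27me3 in both conditions was found at 12 genes (30.8%, beside 20.5% of all genes): Mkrn3, Ube3a, Kcnq1, Phlda2, Cd81, Tssc4, Igf2r, Airn, Zrsr1, Mcts2, Inpp5f and Impact. Neither mark was called at 9 genes in wt and 10 in wt+TNFα (23.1% and 25.6%), beside 63.9% and 55.6% of all genes, and 9 had neither in both conditions (54.8% of all genes). These were Ndn, Magel2, Zim1, Rtl1, Meg3, Rian, Mirg, Nnat and Nap1l5. Ndn and Magel2, growth and trafficking genes of the Prader-Willi/Angelman cluster that are best known in neurons, lay 73079 and 42638 bp from the nearest wt H3K4me3 peak. Meg3, Rian and Mirg, the maternally expressed RNAs of the Dlk1-Meg3 cluster, were 646187, 709126 and 698350 bp from one, and Rtl1, a retrotransposon-derived placental gene, 705516 bp. Rian had H3K27me3 within its body, over 1.96% in wt and 6.57% in wt+TNFα. The nearest H3K27me3 peak to a Meg3 start lay 3674 bp away in wt, outside the Meg3 body, and 61761 bp away in wt+TNFα. No H3K4me3 peak was called in the interval of that cluster in either condition. Nnat, a neuronal proteolipid gene, was 3771 bp from the nearest wt H3K4me3 peak, and Nap1l5 was 74150 bp from one.

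Gene bodies were read from the first to the last annotated base. H3K27me3 covered more of the body in wt+TNFα than in wt at 18 of the 39 genes (46.2%), compared with 21.3% of all genes, and less at 1 (2.56%, compared with 2.58%). A gene can have more only if it has some H3K27me3 in wt+TNFα, as 19 members (48.7%) and 14170 of all genes (25.6%) had. Of these, 18 members and 11771 of all genes had more. The median share was 0 in both conditions among members and among all genes, and the mean was 12.2% and 18.9% for members against 6.66% and 14.7% for all genes. The 1 gene with less was Mest, with 39.3% and 35.6%. H19 had 41.8% of its body under H3K27me3 in wt and 100% in wt+TNFα, and Igf2 80.4% and 100%. Grb10 had 24.8% and 47.7%, and Plagl1 5.85% and 24.9%. Airn had 0.777% and 11.0%, none of it closer than 17233 bp to an Airn start. The wider H3K27me3 at imprinted bodies was measured in a list that covered 228 Mb of the autosomes against 101 Mb, and the part of that general difference in it was not tested.

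**Figure D5:**
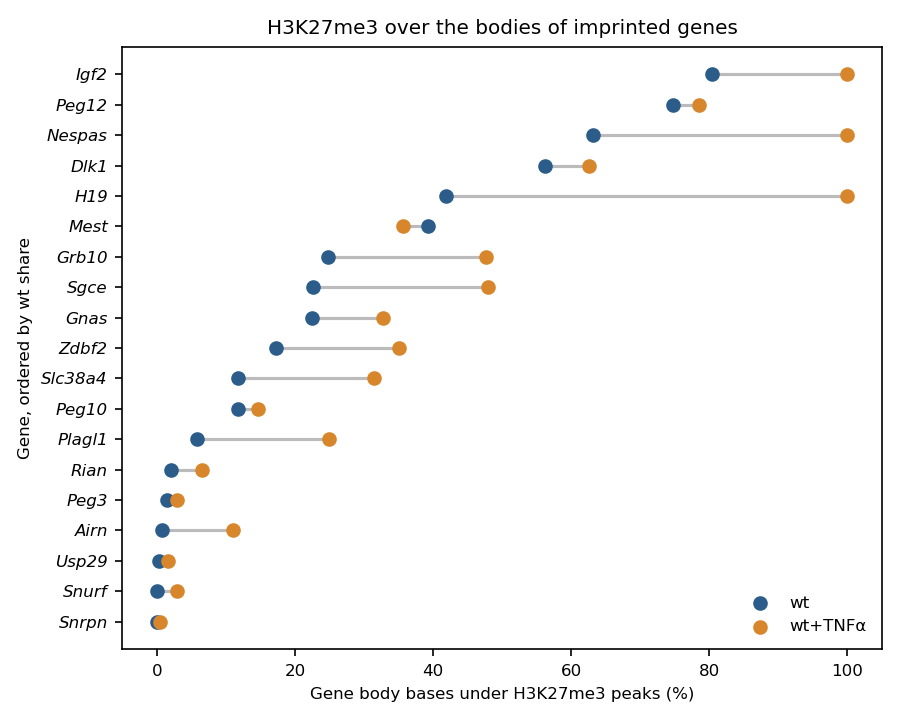
Share of the gene body under H3K27me3 peaks (x axis, %) in wt (blue) and wt+TNFα (orange) for the 19 imprinted genes with any, ordered by wt. The wt+TNFα share is higher at 18 of them and lower at Mest (39.3% and 35.6%).

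Over whole clusters the share of bases under H3K27me3 was higher in wt+TNFα at most loci that carried any. The Gnas interval was covered to 23.2% in wt and 36.0% in wt+TNFα, and the Igf2r-Airn interval to 0.519% and 7.34%. The Kcnq1 interval had 5.39% and 8.59%, with Cdkn1c, the maternally expressed cell cycle inhibitor, under a peak of 2021 bp in wt and of 33115 bp in wt+TNFα. The large Prader-Willi/Angelman interval stayed almost free of the mark, at 0.0610% and 0.0860%, and the Dlk1-Meg3 interval had 2.63% and 3.50%. No H3K27me3 peak lay in the loci of Nnat, Zrsr1, Mcts2, Inpp5f, Impact or Nap1l5 in either condition.

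Of 12 genes of imprint maintenance and DNA methylation, 8 carried promoter H3K4me3 in wt and 9 in wt+TNFα, and 2 and 4 carried H3K27me3. Among all genes the shares were 24.3% and 24.7% for H3K4me3 and 14.2% and 23.2% for H3K27me3. Zfp57 itself, whose protein binds the hexamer shown above, was the only one of the 12 to exchange one mark for the other. In wt its promoters lay under H3K27me3 (chr17:37001594-37006103, 4510 bp, fold enrichment 2.38, −log10 q 1.76) and held no H3K4me3 peak. In wt+TNFα there was no H3K27me3 peak and an H3K4me3 peak of 805 bp was called (chr17:37002417-37003221, fold enrichment 13.1, −log10 q 57, 21.0 percentile). This exchange was found at 34 of the 55341 annotated genes (0.0614%) and at 0 of the 39 imprinted genes. Dnmt3b, a de novo DNA methyltransferase gene, kept an H3K4me3 peak, at fold enrichments of 33.5 and 17.3 (71.3 and 28.5 percentiles). It also had a weak H3K27me3 peak in wt+TNFα alone. Dnmt3l, its cofactor, and Ctcfl, the germline paralog of the insulator gene Ctcf, had H3K27me3 in wt+TNFα alone, a state of 9.96% of all genes. Of 10 genes of Polycomb repressive complex 2, 9 carried H3K4me3 in both conditions, and Rbbp7 had H3K27me3 in wt+TNFα alone. Rbbp7 lies on the X chromosome, where 247 H3K27me3 peaks were called in wt and 11578 in wt+TNFα.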

How the data were processed

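H3K4me3 and H3K27me3 were measured by ChIP-seq, and the 4 deposited peak lists were used. Reads had been mapped by the authors with BWA (2.2) on GRCm38/mm10, cleared of duplicates with SAMtools (1.11), and searched for peaks by MACS2, each library against its input. MACS2 2.1.0 is named in the methods, and the reporting summary names another version. In the deposited lists fold enrichment is a ratio over local background, and significance is the −log10 of the authors' p or q. The lowest −log10 q was 7.00 and 6.95 for H3K4me3 and 0.302 and 0.747 for H3K27me3 (wt and wt+TNFα). Read counts behind a peak are unknown here, and no interval is given.

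Genes were matched by symbol to GENCODE (55450 genes, 141767 transcripts). Neighbouring starts within 1000 bp formed 1 group. Parental classes and gene roles are textbook background. All 39 genes were accounted for. Of the other lists, genes whose promoter state differed between conditions were named, and Cdkn1c was added after its values were seen. The members and lists were chosen with earlier results of these data known. The comparison of a peak with the 200 nearest to it in −log10 q was chosen after the values were seen. Overlap steps were tested on simulated peaks. Alternatives were other promoter widths, overlaps, starts and filters on −log10 q. Calculations used Python 3.11.15, numpy 2.4.6 and pandas 2.3.3, and plots matplotlib 3.10.9.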

Additional observations from a re-analysis of the deposited data

How the results depend on the processing

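With 1 library per condition and mark, no alternative measures replicate error, and a peak missing from a list says only that it fell below a threshold. No paired analysis was possible because the results come from no test and each group has 1 sample. With only the peaks past the median −log10 q of each list, H3K4me3 was at 6 genes in wt and 7 in wt+TNFα, both marks at 1 and 1, neither at 19 and 18, H3K4me3 in wt alone at 0, H3K4me3 in wt+TNFα alone at 1 and H3K27me3 in wt+TNFα alone at 0. With promoters from 1000 bp upstream to the start, both marks in wt were at 3 genes, neither in wt at 14, H3K4me3 in wt alone at 3 and in wt+TNFα alone at 2. At 1 start per gene, both marks were at 3 and 0 genes and H3K27me3 in wt+TNFα alone at 1. With H3K27me3 peaks of −log10 q of at least 2, both marks in wt were at 3 genes and H3K27me3 in wt+TNFα alone at 4. At equal covered length, which removed peaks from the wt+TNFα lists alone, both marks in wt+TNFα were at 1 gene and H3K27me3 in wt+TNFα alone at 0. H3K4me3 in wt alone was at 9, adding Mkrn3, Plagl1 and Impact. For the above counts the cause was not tested, apart from the fewer peaks or bases that a setting keeps. H3K27me3 in wt alone was at 0 members under all 8 alternatives, and H3K27me3 was at 11 to 15 members in wt and 15 to 17 in wt+TNFα.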

Other observations

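A second list of 37 imprinted genes, from the same and other clusters, was measured in the same way. Of these, 19 carried promoter H3K4me3 in wt and 19 in wt+TNFα, beside 24.3% and 24.7% of all genes. In wt alone 0 had it, beside 1.68% of all genes with wt H3K4me3. H3K27me3 was at 13 in wt and 17 in wt+TNFα, beside 14.2% and 23.2% of all genes. The 4 with H3K27me3 in wt+TNFα alone, a state of 9.96% of all genes, were Trpm5, a cation channel gene, Slc22a2, an organic cation transporter gene, Atp10a, a phospholipid flippase gene, and Gatm, a creatine synthesis gene. Their peaks had fold enrichments of 1.94, 1.98, 1.73 and 2.05, the first of them reaching 9 bp into a promoter. Ascl2, the stem cell transcription factor gene of the Kcnq1 cluster, and Osbpl5 carried both marks in both conditions. At Ascl2 the promoter share under H3K27me3 was 90.8% (wt) and 39.4% (wt+TNFα), while that under H3K4me3 was 59.2% and 64.3%. H13, Commd1, Herc3 and Blcap, the host genes of the imprinted Mcts2, Zrsr1, Nap1l5 and Nnat, carried H3K4me3 without H3K27me3 in both conditions, while Mcts2 and Zrsr1 carried H3K4me3 and Nap1l5 and Nnat neither mark.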
